A study of Mus musculus with 42 samples.

Results

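The comparison concerned 4 RNA-seq libraries of mouse medullary thymic epithelial cells sorted for little MHC class II (MHCII-low mTEC): 2 labelled Ski flox Control (replicates 1 and 2) and 2 labelled Control (replicates 4 and 5). They are the libraries of these genotypes and this sort gate among the 21 libraries with the higher library numbers (the late libraries), 4 of the 42 libraries in the series. The gate kept cells positive for EPCAM and for the lectin UEA and negative for CD45, with low Ly51 and low MHC class II. The series covers 3 sorted subsets (cortical TEC, or cTEC, and mTEC with low or with high MHC class II) and 3 genotypes (Ski flox Control, KO and Control), and it was designed around a deletion of SKI restricted to TEC. Each library was made from 200 sorted cells by amplification of full-length cDNA. The labels name no strain, age, allele, Cre driver or animal, so how the genotype Control differs from Ski flox Control is not given, and p-values measure the spread between libraries, which may be technical. The 3 late KO libraries of the same gate (replicates 5 to 7) appear only as context.

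Medullary thymic epithelial cells present self-antigens to developing T cells. Those with low MHC class II include immature precursors and post-mature cells that imitate peripheral tissues, such as thymic tuft cells, while those with high MHC class II hold the transcriptional regulator AIRE. SKI is a transcriptional corepressor that binds SMAD proteins and dampens TGF-beta signalling. Dendritic cells share the medulla with these cells, and mature, migratory ones carry the chemokine receptor CCR7, costimulatory ligands and abundant MHC class II.

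Totals were 4656581 and 4775646 counts in the Ski flox Control libraries and 3995905 and 3497172 counts in the Control libraries, within the range of the 21 late libraries (3497172 to 6098199). At least 1 count was found for 15426 and 17583 genes in Ski flox Control and for 20089 and 17337 genes in Control. All 4 libraries held Xist, at 182 and 131 CPM (counts scaled to library size) in Ski flox Control and 194 and 191 CPM in Control, and none held a count on the Y-linked genes measured.

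Transcripts of the gate markers differed between libraries that carry the same gate label. Epcam (ENSMUSG00000045394, GRCm38 chr17:87635979-87651129, plus strand) had 231 and 478 CPM in Ski flox Control, against 1237 and 1373 CPM in Control. H2-Aa, which encodes an MHC class II chain, had 6698 and 8419 CPM in Ski flox Control, against 3115 and 2259 CPM in Control. In the late MHCII-high mTEC libraries H2-Aa had 7368 and 7317 CPM in Ski flox Control and 5757 and 5952 CPM in Control, so the Ski flox Control libraries gated as MHCII-low lay within or above the range of those MHCII-high libraries. Ptprc, which encodes CD45, was present in all 4 libraries in spite of the negative gate, at 640.1 and 624 CPM in Ski flox Control and 618 and 393 CPM in Control. Over 13787 genes, Pearson's r of log2(CPM + 1) between both Ski flox Control libraries was 0.858. Their r with the late cTEC libraries was 0.821 to 0.844 for replicate 1 and 0.833 to 0.857 for replicate 2, with the MHCII-low KO libraries 0.713 to 0.824 for replicate 1 and 0.754 to 0.850 for replicate 2, and with the MHCII-low Control libraries 0.699 to 0.745 for replicate 1 and 0.728 to 0.796 for replicate 2. These values describe libraries that share chemistry and depth, over genes that are not independent. Psmb11, a proteasome subunit that marks cTEC, was low in all 4 libraries, at 7.29 and 6.57 CPM in Ski flox Control and 1.15 and 11.7 CPM in Control, where the cTEC libraries of these genotypes had 164 and 264 CPM in Ski flox Control and 180.3 and 222 CPM in Control. Epcam and MHC class II transcripts of the Ski flox Control libraries thus went against their gate label, and whether the sort or the sample labels differ there was not tested. Every result below rests on these 4 libraries, and each fold compares libraries that carry these labels.

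The genes called higher in Ski flox Control included genes of mature dendritic cells and of antigen processing, and those called lower included simple epithelial keratins and AP-1 subunits. With edgeR's quasi-likelihood test, fitted on the 21 late libraries and adjusted over the 20216 genes tested (threshold 0.05), 234 genes (1.16%) were higher and 43 genes (0.213%) were lower in Ski flox Control than in Control, 277 (1.37%) in all. Most genes called belong to none of the 43 gene lists used below: 201 of those called higher and 33 of those called lower were in no list. The lists held 33 genes called higher and 10 called lower. The median log2 fold change was 2.31 over the genes called higher and -2.73 over those called lower. Of all genes tested, 40.5% had a positive fold change and the median was -0.07. Groups of 2 did not overlap in all 277 genes called, beside 17.4% of all genes with both Ski flox Control libraries above both Control libraries and 22.3% with both below. By a margin of 2-fold and at least 10 CPM in both libraries of the higher group, 613 genes (3.03%) stood higher and 1001 genes (4.95%) stood lower (7.98% in all), among them 216 and 38 of the genes called. An exact permutation test of 2 libraries against 2 cannot go below p = 0.333, so single values are given without one.

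**Figure D1:**
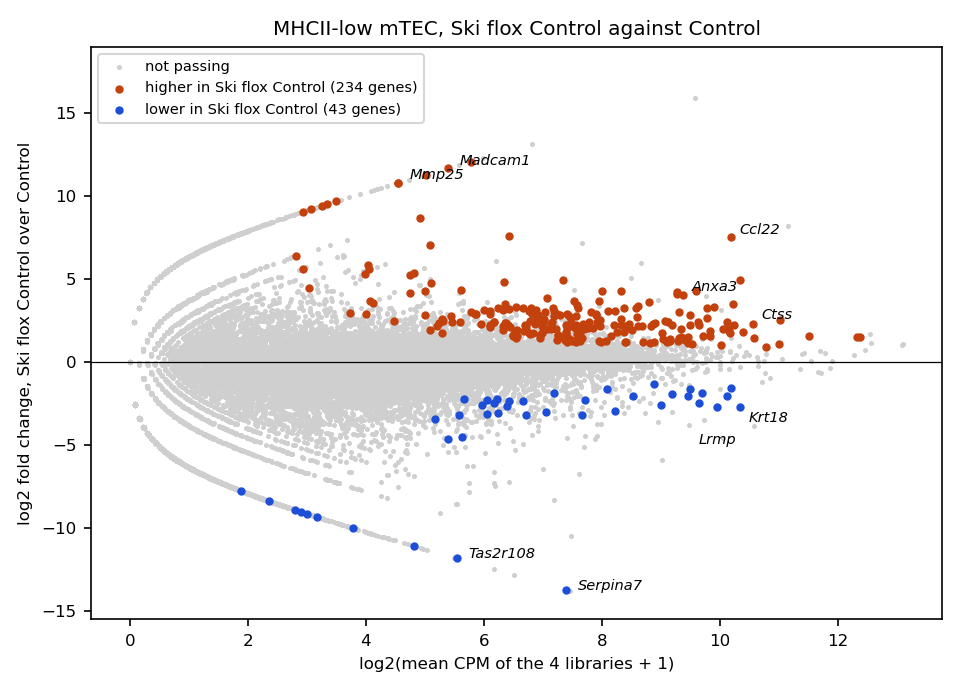
Each point is 1 of the 20216 genes tested, with the log2 of its mean CPM + 1 over the 4 libraries on the x axis and its log2 fold change, Ski flox Control over Control, on the y axis. The 234 genes called higher include Ccl22 and Anxa3, the 43 called lower include Krt18 and Lrmp, and the curved edges hold genes with no count in 1 genotype, whose fitted fold depends on the prior count.

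These calls lean on the other late libraries for the estimate of spread and on single libraries. In a fit of only the 4 libraries, edgeR called 0 genes (smallest adjusted p = 0.0574, 2096 genes with an unadjusted p under 0.05), whereas DESeq2 on the 21 libraries called 555 higher and 477 lower and limma voom 126 higher and 193 lower. Without Control replicate 5 edgeR called 13 higher and 1 lower, without Control replicate 4 it called 266 and 29, without Ski flox Control replicate 1 it called 46 and 2, and without Ski flox Control replicate 2 it called 115 and 51.

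The migratory dendritic cell list held the most members called. Of its 30 genes, 28 had a positive fold change, and 14 were called higher and none lower, beside 1.16% of all genes tested called higher. The list's median log2 fold change was 3.10, against -0.07 over all genes tested. The list was put together after values of these libraries had been seen, so its counts are a description. Its summed level was 18490 and 19520 CPM in Ski flox Control, against 2153 and 1725 CPM in Control. Summed over the same genes, KO replicate 5 had 2003 CPM, near both Control libraries, and KO replicates 6 and 7 had 11890 and 11990 CPM. In bulk libraries of this kind, fewer cells of a type and less RNA per cell cannot be told apart.

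Among the ligands, Ccl22, a chemokine that attracts CCR4-bearing cells, had 1515 and 3102 CPM in Ski flox Control, against 24.6 and 0.25 CPM in Control. The groups did not overlap, and as a ratio the Control libraries differed from each other by more than the Ski flox Control libraries did. The log2 fold change was 7.53 (SE 1.27, edgeR adjusted p = 0.00772). Ccl5, another chemokine gene, had 2852 and 2170.0 CPM in Ski flox Control and 151 and 9.49 CPM in Control (log2 fold change 4.97, SE 1.07, edgeR adjusted p = 0.0289). Cxcl16, a membrane-bound ligand of CXCR6 on the wider chemokine list, had 1179 and 1199 CPM in Ski flox Control and 195 and 306 CPM in Control (log2 fold change 2.25, SE 0.37, edgeR adjusted p = 0.00684). These were the 3 members called among the 21 chemokine ligand genes tested, whose median was -0.13. Il15, a cytokine that sustains natural killer and memory T cells, had 258 and 242 CPM in Ski flox Control, against 23.9 and 9.99 CPM in Control (log2 fold change 3.88, SE 0.63, edgeR adjusted p = 0.00684).

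On the receptor side, Ccr7, which guides cells toward its ligands CCL19 and CCL21, had 2239 and 2165 CPM in Ski flox Control and 186 and 203 CPM in Control. Both libraries of each genotype lay close together. Its log2 difference came to 3.50 (SE 0.62, edgeR adjusted p = 0.0104). Il15ra, the chain that presents IL-15 to neighbouring cells, had 567 and 409 CPM in Ski flox Control and 97.1 and 18.7 CPM in Control (log2 fold change 3.07, edgeR adjusted p = 0.0264). Transcripts of 3 surface proteins of mature antigen-presenting cells were also called. Cd83, which stabilises surface MHC class II, had 1018 and 1224 CPM in Ski flox Control, against 148 and 129 CPM in Control (log2 fold change 3.02, edgeR adjusted p = 0.0101). The CD28 ligand gene Cd86 had 682 and 661 CPM in Ski flox Control and 143 and 64.5 CPM in Control, and the adhesion gene Icam1 had 265 and 307 CPM in Ski flox Control and 48.2 and 79.4 CPM in Control. Both were called higher.

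Intracellular members were called higher as well. Samsn1, an adaptor protein gene, had 1261 and 1076 CPM in Ski flox Control, against 91.8 and 41.7 CPM in Control (log2 fold change 4.13, SE 0.65, edgeR adjusted p = 0.00622). Socs2, which dampens cytokine signalling, had 429.6 and 484 CPM in Ski flox Control and 51.9 and 20 CPM in Control. Traf1, an adaptor of TNF receptors, had 832 and 592 CPM in Ski flox Control and 96.9 and 42.0 CPM in Control. Cacnb3, Mreg and Tbc1d4 were the other members called. Fscn1, which encodes an actin-bundling protein of mature dendritic cells, had 366 and 332 CPM in Ski flox Control and 30.1 and 4.50 CPM in Control but missed the threshold (edgeR adjusted p = 0.0684). Cd40 (edgeR adjusted p = 0.0531) and Relb (edgeR adjusted p = 0.0687) also missed it with groups that did not overlap. Ccr7, Icam1, Il15ra, Traf1, Cacnb3, Mreg, Tbc1d4, Fscn1, Cd40 and Relb fall outside the naming rule and were chosen after their values were seen.

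General dendritic and myeloid markers leaned higher, with exceptions. Of 20 myeloid and dendritic markers, 17 had a positive fold change and 4 were called higher, with a median of 1.79. The other 3, Mrc1, Cd14 and Laptm5, were lower without overlap and did not pass. Mrc1, the macrophage mannose receptor, had 0 and 0.219 CPM in Ski flox Control and 42.9 and 6.5 CPM in Control (edgeR adjusted p = 0.160). These 3 were chosen after their values were seen. Ctss, which encodes cathepsin S, the protease that trims the MHC class II invariant chain, had 2195 and 2808 CPM in Ski flox Control, against 479 and 556 CPM in Control (log2 fold change 2.27, SE 0.28, edgeR adjusted p = 0.00104). C1qb, a chain of complement C1q, had 102 and 235 CPM in Ski flox Control and 1.61 and 0 CPM in Control (log2 fold change 7.63, SE 1.24, edgeR adjusted p = 0.00684). Tyrobp, a signalling adaptor of myeloid receptors, had 780.4 and 1099.5 CPM in Ski flox Control and 204 and 147 CPM in Control, and Fcer1g, the shared Fc receptor gamma chain, had 428 and 308 CPM in Ski flox Control and 74.4 and 63.2 CPM in Control. Both were called higher. The summed level of this list was 12590 and 19500 CPM in Ski flox Control, against 5533 and 3394 CPM in Control.

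Of 12 markers of conventional dendritic cells, 11 had a positive fold change, and 1 was called higher, Batf3, a transcription factor needed for the cross-presenting lineage. It had 269 and 249 CPM in Ski flox Control and 27.5 and 26.5 CPM in Control (log2 fold change 3.26, SE 0.61, edgeR adjusted p = 0.0128). Flt3, the receptor of the dendritic growth factor FLT3 ligand, had 229 and 236 CPM in Ski flox Control and 82.4 and 39.0 CPM in Control without passing (edgeR adjusted p = 0.118). The list's summed level was 1664 and 1992 CPM in Ski flox Control and 927.7 and 402.7 CPM in Control. Of 8 pan-leukocyte genes, Ptprc among them, none was called by edgeR, and their summed level was 6237 and 6373 CPM in Ski flox Control and 4211 and 3652 CPM in Control. The 20 thymocyte markers had no member called, a median of -0.20, and sums of 3664 and 2602 CPM in Ski flox Control and 2617 and 3942 CPM in Control. With the summed level of the conventional dendritic markers as a covariate, a setting added after the data were seen, 25 genes were called higher and 2 lower, 5 of the migratory dendritic genes among them, and the median of that list was 1.74.

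Genes that prepare peptides for MHC class I leaned higher in Ski flox Control. Of 14 immunoproteasome and peptide loading genes, 13 had a positive fold change, 12 did not overlap and 5 were called higher, with a median log2 fold change of 1.16. Over all genes tested, 17.4% were higher without overlap and 1.16% were called higher. Psme2, a subunit of the PA28 proteasome activator, had 1996 and 1985 CPM in Ski flox Control and 461 and 384 CPM in Control (log2 fold change 2.24, SE 0.39, edgeR adjusted p = 0.00838). Its partner Psme1 had 1636 and 1752 CPM in Ski flox Control and 481 and 363 CPM in Control (edgeR adjusted p = 0.00684). The catalytic subunit genes Psmb8 and Psmb9 had log2 fold changes of 1.48 and 1.60, and Nlrc5, the transactivator of MHC class I genes, had 234 and 225 CPM in Ski flox Control, against 41.8 and 56.5 CPM in Control. Tap1, a peptide transporter subunit, had 348 and 366 CPM in Ski flox Control and 113 and 143 CPM in Control without passing (edgeR adjusted p = 0.0641).

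Of 22 AIRE and mature medullary genes, 19 had a positive fold change and 4 were called higher: Ccl22, Cd86, H2-Aa and H2-Eb1. The 4 are also genes of mature dendritic cells. H2-Eb1, an MHC class II beta chain, had 6975 and 8830.1 CPM in Ski flox Control and 3029 and 2421 CPM in Control (log2 fold change 1.54, SE 0.36, edgeR adjusted p = 0.0422), and H2-Aa was higher by 1.49 on the log2 scale (edgeR adjusted p = 0.0416). MHC class II protein was itself a sort criterion. Aire had 31.3 and 25.9 CPM in Ski flox Control and 3.90 and 4.50 CPM in Control (log2 fold change 2.76, SE 0.73, edgeR adjusted p = 0.0827), far below the 335 to 430.1 CPM of the MHCII-high libraries of these genotypes. Cd80, a second CD28 ligand, had 139 and 34.4 CPM in Ski flox Control and 15.8 and 4.0 CPM in Control (edgeR adjusted p = 0.107). Fezf2, another regulator of self-antigens, had 26.1 and 17.3 CPM in Ski flox Control and 52.8 and 21.5 CPM in Control. Of the self-antigen lists, none of 18 AIRE-dependent and none of 11 FEZF2-dependent genes tested was called by edgeR.

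**Figure D2:**
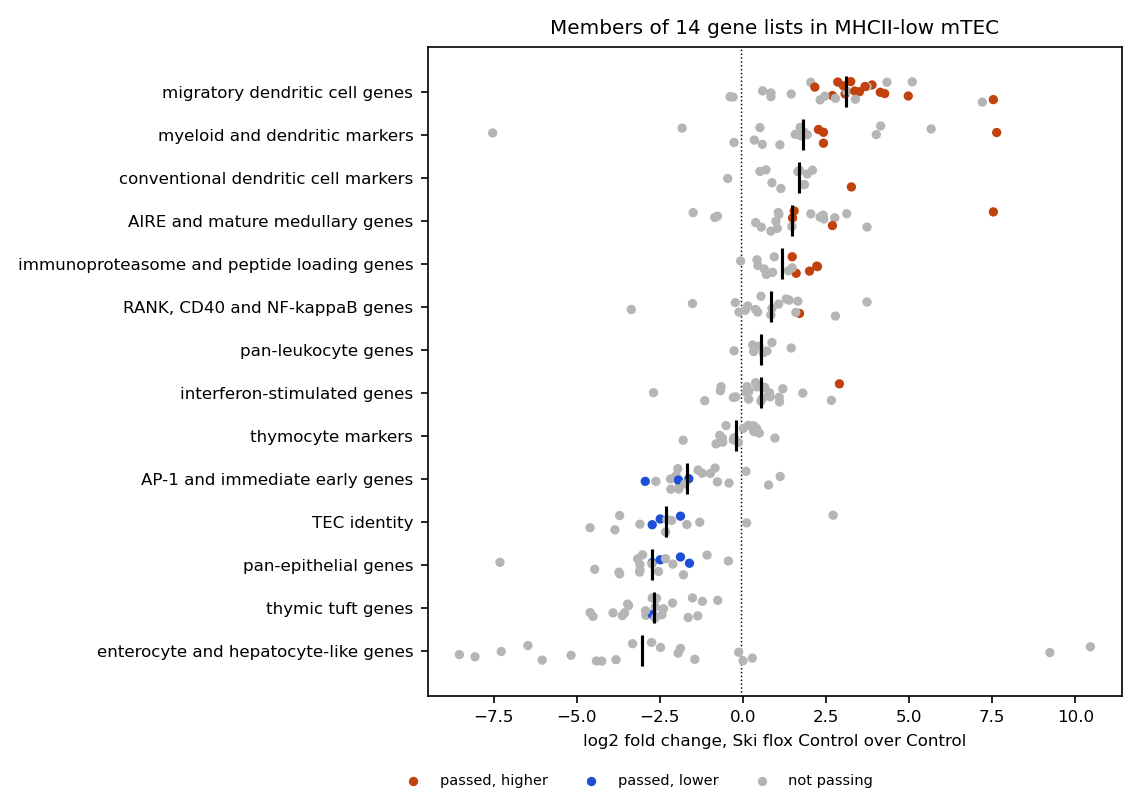
Each point is a member of 1 of 14 gene lists at its log2 fold change, Ski flox Control over Control, colored by whether it passed the edgeR threshold, with a bar at the list's median and a dotted line at the median of all genes tested (-0.07). The migratory dendritic list lies farthest to the right (median 3.10), and the pan-epithelial (-2.73), tuft (-2.68) and enterocyte and hepatocyte-like (-3.03) lists lie to the left.

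The largest fold changes among the genes called higher, as the naming rule takes them, included genes with no count in Control. Mmp25 (ENSMUSG00000023903), a membrane-anchored matrix metalloproteinase, had 42.2 and 46.9 CPM in Ski flox Control and 0 counts in both Control libraries, which makes it at least 124-fold higher when Control is placed at 3 counts over both libraries (edgeR adjusted p = 4.94e-05). The KO libraries had 14.3, 25.6 and 39.9 CPM. Madcam1, the mucosal addressin bound by lymphocyte integrin, had 142 and 21.3 CPM in Ski flox Control and 0 counts in Control, and 0 in the 3 KO libraries. Its mean was at least 227-fold higher (edgeR adjusted p = 0.0434), mostly through Ski flox Control replicate 1. Efna2, an ephrin ligand, was at least 47.6-fold higher and Gal3st2, a sulfotransferase gene, at least 37.1-fold higher. Folds given as at least, here and below, take the mean of both libraries of the higher genotype and are no bound for each library.

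Il27, which encodes a subunit of the cytokine IL-27, had 100.3 and 16.9 CPM in Ski flox Control and 0.23 and 0 CPM in Control. Slc2a6, a sugar transporter gene, had 62.8 and 68.4 CPM in Ski flox Control and 0.918 and 0 CPM in Control (edgeR adjusted p = 0.00684). Plxnc1, a semaphorin receptor gene, had 358 and 269 CPM in Ski flox Control and 19.5 and 0.50 CPM in Control, and Mir155hg, the host transcript of a microRNA induced in activated leukocytes, had 53.8 and 52.6 CPM in Ski flox Control and 2.52 and 0 CPM in Control. Adora2a, Ankrd35, Ndnf and Ttll9 were also taken, with log2 fold changes between 4.47 and 5.88. Ccl22, Ccl5 and C1qb complete the 15 genes the rule took, all of which it required to be without overlap.

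Anxa3 (ENSMUSG00000029484, GRCm38 chr5:96793339-96845966, plus strand), an annexin that binds phospholipids in the presence of calcium, had the smallest adjusted p. It had 1185 and 1305 CPM in Ski flox Control, against 87.9 and 61.2 CPM in Control, and 370.2, 637 and 567 CPM in KO. The libraries of each control genotype lay close together, with KO between them. The log2 fold change was 4.06 (SE 0.31, edgeR adjusted p = 5.33e-06). In cTEC the same gene had 1762 and 2053 CPM in Ski flox Control and 1412 and 1809 CPM in Control. Epsti1, an interferon-induced gene, had 1265 and 1074 CPM in Ski flox Control and 84.9 and 38.2 CPM in Control (log2 fold change 4.25, SE 0.62, edgeR adjusted p = 0.00405). Slc4a8, a bicarbonate transporter gene, had 219 and 203 CPM in Ski flox Control and 22.0 and 26.5 CPM in Control (log2 fold change 3.12, SE 0.38, edgeR adjusted p = 0.00104). Anxa3, Epsti1 and Slc4a8 were chosen after their values were seen.

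Genes shared by epithelia leaned lower in Ski flox Control. All 20 members of a pan-epithelial list, put together after values had been seen, had a negative fold change and groups that did not overlap, and 4 were called lower, with a median of -2.73. Over all genes tested, 22.3% were lower without overlap and 0.213% were called lower. The summed level was 2067 and 2736 CPM in Ski flox Control, against 9581 and 9607 CPM in Control. KO replicate 5 had 10890 CPM and KO replicates 6 and 7 had 4096 and 4535 CPM. Krt18, a keratin of simple epithelia, had 311 and 369.8 CPM in Ski flox Control and 2235 and 2274 CPM in Control (log2 fold change -2.73, SE 0.50, edgeR adjusted p = 0.0119). Its pairing partner Krt8 had 222 and 261 CPM in Ski flox Control and 1379 and 1343 CPM in Control (log2 fold change -2.49, edgeR adjusted p = 0.0434). Epcam fell by 1.88 on the log2 scale (SE 0.40, edgeR adjusted p = 0.0283), and F11r, a tight junction protein gene, had 114 and 152 CPM in Ski flox Control and 415 and 399 CPM in Control.

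The dendritic and epithelial lists moved in opposite directions in the same libraries, and the part of one in the other was not tested. The late cTEC libraries of these genotypes had 26990 and 27010 CPM of the migratory dendritic genes in Ski flox Control and 26460 and 28110 CPM in Control, with 2436 and 2544 CPM of the pan-epithelial genes in Ski flox Control and 2776 and 2001 CPM in Control. The 2 genotypes overlapped there in both lists. In MHCII-high mTEC the migratory dendritic sums were 16890 and 12800 CPM in Ski flox Control and 10480 and 14580 CPM in Control, and the pan-epithelial sums 6407 and 6419 CPM in Ski flox Control and 6769 and 6189 CPM in Control, which overlapped. Among the early MHCII-low Control libraries, replicate 1 had 2011 CPM and replicate 3 had 9381 CPM of the migratory dendritic genes, so Control libraries of this gate also differed widely among themselves.

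**Figure D3:**
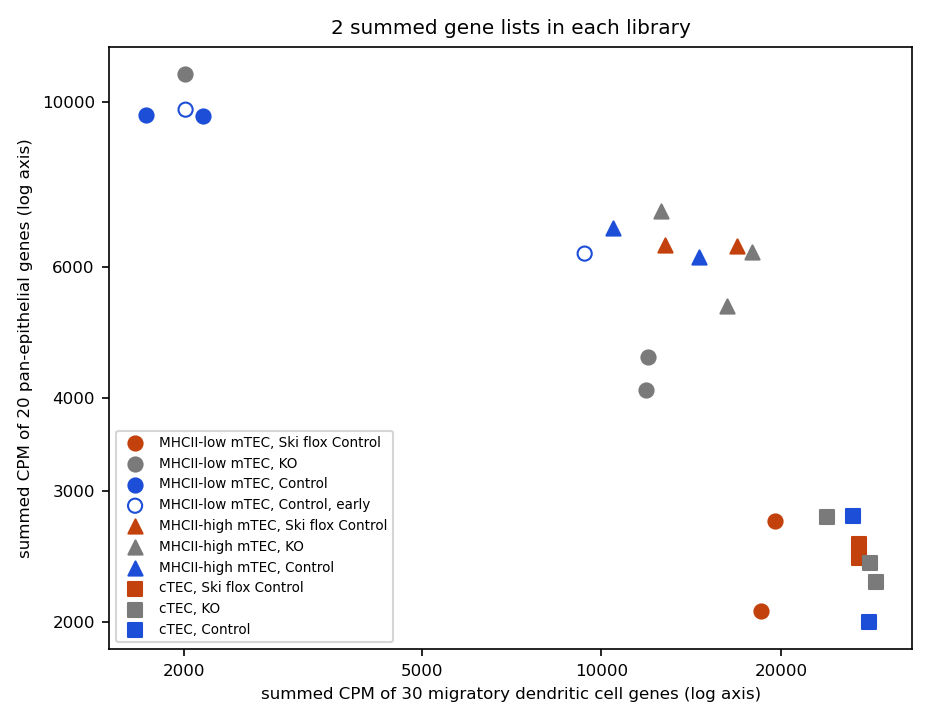
Each point is 1 library, placed by its summed CPM of the 30 migratory dendritic cell genes (x axis, log scale) and of the 20 pan-epithelial genes (y axis, log scale), with colors for genotype and shapes for subset. The MHCII-low mTEC Ski flox Control libraries (18490 and 19520 CPM on the x axis) lie toward the cTEC libraries, and the late MHCII-low Control libraries (2153 and 1725 CPM) lie at the upper left with KO replicate 5.

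Of 15 TEC identity genes, 14 were tested, and 12 of them had a negative fold change (median -2.31), with Krt8, Krt18 and Epcam called lower. Foxn1, the transcription factor that specifies TEC, had 1.93 and 17.7 CPM in Ski flox Control and 0 and 3.0 CPM in Control (edgeR adjusted p = 0.559). Krt5, a basal keratin of the medulla, had 3.43 and 37.5 CPM in Ski flox Control and 165 and 83.7 CPM in Control (edgeR adjusted p = 0.391), and its partner Krt14 had 152 and 169.8 CPM in Ski flox Control and 196 and 139.9 CPM in Control. The list of immature medullary genes had no member called by edgeR among 21, and Ccl21a did not pass the count filter. Of 16 cortical TEC genes, Cd83 and Ly75, both also genes of dendritic cells, were called higher, and the list's median was -0.61.

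Tuft cell genes leaned lower in Ski flox Control, with 1 of 22 past the test. All 22 members of the thymic tuft list had a negative fold change, 20 without overlap, beside 22.3% of all genes tested lower without overlap. The median was -2.68, and the summed level was 1538 and 1243 CPM in Ski flox Control, against 10370 and 8727 CPM in Control. Lrmp, a membrane protein gene of tuft cells, was the member called, with 327 and 188 CPM in Ski flox Control and 1839.7 and 1578 CPM in Control (log2 fold change -2.73, SE 0.48, edgeR adjusted p = 0.0101). Trpm5, the taste transduction channel, had 102 and 127 CPM in Ski flox Control and 504 and 489 CPM in Control (edgeR adjusted p = 0.541). Dclk1, a kinase that marks tuft cells, had 82.5 and 95.7 CPM in Ski flox Control and 430.3 and 678 CPM in Control (edgeR adjusted p = 0.496), and Pou2f3, their lineage transcription factor, had 17.4 and 24.3 CPM in Ski flox Control and 152 and 165 CPM in Control (edgeR adjusted p = 0.421). Trpm5, Dclk1 and Pou2f3 were chosen after their values were seen. KO replicate 5 had 9607 CPM over the list and KO replicates 6 and 7 had 3514 and 4217 CPM. The lean was not particular to this subset, since the sums were lower without overlap in the other late subsets too. The late MHCII-high libraries had 2570 and 1692 CPM in Ski flox Control and 5081 and 3841 CPM in Control. The late cTEC libraries had 219.6 and 186.0 CPM in Ski flox Control and 319.8 and 336.1 CPM in Control.

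Tuft cells use the bitter taste receptor family to sense bitter compounds. Of 35 genes, 29 were tested, and all 29 had a negative fold change, 21 of them without overlap and 1 past the test. The share lower without overlap was 22.3% over all genes tested. The median was -5.54, or -4.45 with the 13 genes that had no count in 1 genotype placed at their bound. Summed levels were 73.7 and 5.92 CPM in Ski flox Control, against 1049 and 416.7 CPM in Control. Tas2r108 was called lower, with 0 counts in both Ski flox Control libraries against 135 and 46.5 CPM in Control, which places it at least 279-fold lower (edgeR adjusted p = 0.0252).

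Other lists of cells that imitate peripheral tissues had negative medians and few calls. Medians were -3.03 over 20 enterocyte and hepatocyte-like genes (-2.39 with bounds), -3.20 over 21 neuroendocrine-like genes (-1.96 with bounds), -2.51 over 24 keratinocyte-like genes (-1.71 with bounds), -2.11 over 13 ciliated-like genes (-1.32 with bounds), -1.26 over 14 muscle-like genes, -1.02 over 13 microfold-like genes, -0.96 over 12 ionocyte and secretory-like genes and -0.94 over 5 parathyroid genes. The neuroendocrine-like sums nevertheless overlapped, at 245.8 and 58.7 CPM in Ski flox Control and 154.9 and 209.1 CPM in Control, and 13 of the 21 genes had no count in 1 genotype. In the same list Insm1, a neuroendocrine transcription factor, was called higher, with 38.4 and 22.6 CPM in Ski flox Control and 2.52 and 2.50 CPM in Control (log2 fold change 3.59, SE 0.64, edgeR adjusted p = 0.0111). Aif1, on the microfold list but also a macrophage and dendritic gene, was called higher with 812 and 774 CPM in Ski flox Control and 163 and 151 CPM in Control. No member of the other 6 lists was called by edgeR.

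The largest fold changes among the genes called lower included genes with 0 counts in both Ski flox Control libraries. Serpina7, which encodes a thyroid hormone binding protein of serum, had 625 and 45.5 CPM in Control. Against that mean, which rests mostly on Control replicate 4, it was at least 1031-fold lower in Ski flox Control (edgeR adjusted p = 0.0232). Kcnq1, a potassium channel gene, was at least 166-fold lower, Rtkn at least 43.2-fold lower, and Tmlhe, an enzyme of carnitine synthesis, at least 39.7-fold lower. Cited2, a transcriptional coregulator, had 23.1 and 35.3 CPM in Ski flox Control and 204 and 265 CPM in Control (log2 fold change -3.01, SE 0.51, edgeR adjusted p = 0.00772). Bpgm, an enzyme of the red cell glycolytic side path, had 13.7 and 65.5 CPM in Ski flox Control and 413 and 319 CPM in Control. Asb11, Cdcp1, Cadps2, Arrdc3, Fer and Eya2 were also called, with log2 fold changes from -4.62 to -3.05.

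Genes of the AP-1 and immediate early response leaned lower in Ski flox Control. Of 20, 17 had a negative fold change, 15 without overlap, and 3 were called, beside 22.3% lower without overlap and 0.213% called lower over all genes tested. The median was -1.69, and the summed level was 4277 and 5219 CPM in Ski flox Control, against 9698 and 11140 CPM in Control. Junb, an AP-1 subunit, had 411 and 288 CPM in Ski flox Control and 1069 and 1100.2 CPM in Control (log2 fold change -1.63, SE 0.28, edgeR adjusted p = 0.00772). Jun had 64.3 and 73.4 CPM in Ski flox Control and 435 and 619.8 CPM in Control (log2 fold change -2.94, SE 0.69, edgeR adjusted p = 0.0434), and Ier2, an immediate early gene, had 236 and 245 CPM in Ski flox Control and 815 and 1037 CPM in Control. Fos had 783 and 1219.6 CPM in Ski flox Control and 2426 and 2256 CPM in Control without passing (edgeR adjusted p = 0.162). The KO libraries summed to 8967, 8548 and 8955 CPM over the list, all 3 between the control genotypes and nearer Control. The lean was not particular to this subset, since the sums were lower without overlap in the other late subsets too. In cTEC they were 4855 and 4669 CPM in Ski flox Control and 8692 and 7634 CPM in Control. In MHCII-high mTEC they were 4680 and 4176 CPM in Ski flox Control and 5998 and 7395 CPM in Control.

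Ski was not called. Of the listed TGF-beta and BMP target genes 2 were called, in opposite directions, 1 of them Junb of the AP-1 list above. Ski (ENSMUSG00000029050, GRCm38 chr4:155154075-155222592, minus strand) had 31.1 and 30.9 CPM in Ski flox Control and 20.4 and 7.49 CPM in Control (log2 fold change 1.15, SE 1.29, edgeR adjusted p = 0.755), and 5.73, 8.94 and 0.502 CPM in KO. Skil, which encodes the related corepressor SnoN, had 114 and 80.8 CPM in Ski flox Control and 44.8 and 39.2 CPM in Control (edgeR adjusted p = 0.244). Smad7, an inhibitory SMAD induced by TGF-beta, had 9.86 and 11.2 CPM in Ski flox Control and 6.2 and 6.0 CPM in Control. None of 13 SKI and SMAD genes and none of 22 TGF-beta and BMP ligands and receptors was called by edgeR. Of 18 target genes, Id2, an inhibitor of helix-loop-helix factors, was called higher with 2209 and 2258 CPM in Ski flox Control and 878 and 771 CPM in Control (log2 fold change 1.44, edgeR adjusted p = 0.0333), Junb was called lower, and the median was 0.02. Within 10 Mb of Ski, 164 genes were tested, with a median of 0.00 and 1 called, Lrrc47. Of the 164, 50 were higher and 34 were lower without overlap, beside 17.4% and 22.3% of all genes tested. Those shares depend on expression level. Of the 9871 genes with a mean of at least 10 CPM over the 4 libraries, 2555 were higher and 2575 were lower without overlap. Whether position near Ski matters was not tested.

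Further lists, of signalling, housekeeping and other cell types, held few or no members called. Of 19 RANK, CD40 and NF-kappaB genes, 15 had a positive fold change (median 0.84), and Ikbkb, the kinase that releases NF-kappaB, was called higher with 280.1 and 303 CPM in Ski flox Control and 95.9 and 83.4 CPM in Control (log2 fold change 1.70, SE 0.26, edgeR adjusted p = 0.00565). Of 25 interferon-stimulated genes, Mx1, an antiviral GTPase, was called higher with 375 and 218 CPM in Ski flox Control and 53.7 and 25.5 CPM in Control, and the median was 0.54. The 24 nuclear respiratory chain genes had a median of 0.14, and Sdha, a subunit of succinate dehydrogenase, was called lower with 284 and 262 CPM in Ski flox Control and 652 and 691 CPM in Control. edgeR called no member of the WNT (23 genes, median -0.45), cell cycle (24, 0.50), heat shock (18, 0.11), sterol synthesis (17, 0.03), mitochondrially encoded (8, -0.64), B-lineage (13, 0.97), endothelial (11, -1.05) or mesenchymal (16, -2.33, or -1.11 with bounds) lists. Erythroid genes summed to 3.86 and 0 CPM in Ski flox Control and 2.75 and 0 CPM in Control. B-lineage transcripts varied within each genotype, at 1187 and 9569 CPM in Ski flox Control and 11170 and 2350 CPM in Control.

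The same contrast was made in the other subsets, with other libraries of the same genotypes. In cTEC edgeR called 0 genes higher and 4 lower of 20216 (0.0198%), and in MHCII-high mTEC 0 genes in either direction, with 1126 and 916 genes at an unadjusted p under 0.05. DESeq2 called 19 higher and 153 lower in cTEC, and 22 higher and 10 lower in MHCII-high mTEC. A test of the difference itself gave fewer genes than the count in MHCII-low mTEC alone. The fold change exceeded that in cTEC for 4 genes and that in MHCII-high mTEC for 10 genes (0.0495%), and fell below either for none, with 1590 and 1758 genes at an unadjusted p under 0.05. Anxa3, Mmp25 and Slc4a8 were in both sets. Lrrc47 passed against cTEC alone, and Epsti1, Ankrd35, Rassf2, Arhgap30, Pfkfb3, Grk3 and AW112010 against MHCII-high mTEC alone. For the other genes called, neither difference passed the test.

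Levels of the called genes in libraries outside the contrast are a description, since the genes were chosen by the 4 libraries. Of the 234 genes called higher, 34 (14.5%) lay nearer the Ski flox Control mean than the Control mean in KO replicate 5, against 192 (82.1%) in KO replicate 6 and 166 (70.9%) in KO replicate 7. In the early MHCII-low Control libraries, 30 (12.8%) did so in replicate 1 and 145 (62.0%) in replicate 3. In cTEC the share was 94.9% to 99.1% over the late libraries of the 3 genotypes. In MHCII-high mTEC it was 70.1% to 86.8% over the late libraries, with 80.3% and 76.9% in Control replicates 4 and 5. Of the 43 genes called lower, 2, 17 and 14 lay nearer Ski flox Control in KO replicates 5, 6 and 7. The number was 5 and 17 in early MHCII-low Control replicates 1 and 3. It was 30 to 36 in the late cTEC libraries and 4 to 21 in the late MHCII-high mTEC libraries.

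Promoters of genes that moved were searched for motifs of the pathways named above. Shown are 4 windows of 300 bases, 250 before to 50 after the RefSeq gene start (GRCm38.p6), for genes described above. The motif match is in capitals and the rest in lower case. All 4 hold a match, which most promoters of the genes called did not. Ccl22, Psme2, Krt8, Epcam and Junb, also called, held no match to any motif searched. Mmp25 (chr17:23645220-23645519, minus strand), Epsti1 (chr14:77903989-77904288, plus strand) and Krt18 (chr15:102027966-102028265, plus strand) hold matches to the kappaB consensus of NF-kappaB, and Ctss (chr3:95526536-95526835, plus strand) holds an interferon-stimulated response element, searched as a pair of GAAA repeats with any 2 bases between them.
Mmp25: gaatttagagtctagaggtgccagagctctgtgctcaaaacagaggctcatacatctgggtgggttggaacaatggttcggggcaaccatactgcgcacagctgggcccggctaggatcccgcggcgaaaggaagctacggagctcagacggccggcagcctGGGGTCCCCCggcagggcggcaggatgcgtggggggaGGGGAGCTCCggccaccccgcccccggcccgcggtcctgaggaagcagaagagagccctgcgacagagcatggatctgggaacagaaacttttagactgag
Epsti1: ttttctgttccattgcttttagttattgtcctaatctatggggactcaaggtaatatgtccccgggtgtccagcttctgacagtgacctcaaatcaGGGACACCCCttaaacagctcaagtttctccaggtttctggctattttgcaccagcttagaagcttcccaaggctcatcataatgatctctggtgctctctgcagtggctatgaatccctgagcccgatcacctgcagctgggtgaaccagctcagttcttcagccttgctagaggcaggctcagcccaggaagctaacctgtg
Ctss: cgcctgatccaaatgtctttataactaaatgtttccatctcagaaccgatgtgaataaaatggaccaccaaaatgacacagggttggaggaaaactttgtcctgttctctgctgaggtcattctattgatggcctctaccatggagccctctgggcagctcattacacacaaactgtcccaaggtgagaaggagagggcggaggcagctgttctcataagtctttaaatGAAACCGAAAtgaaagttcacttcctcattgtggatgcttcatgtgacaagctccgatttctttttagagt
Krt18: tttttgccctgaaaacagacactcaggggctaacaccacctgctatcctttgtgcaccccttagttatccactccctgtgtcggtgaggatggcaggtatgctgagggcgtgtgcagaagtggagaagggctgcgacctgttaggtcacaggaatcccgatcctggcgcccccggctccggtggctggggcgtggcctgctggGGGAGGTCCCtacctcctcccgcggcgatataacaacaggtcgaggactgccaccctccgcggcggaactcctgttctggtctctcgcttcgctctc
The matches begin 88 and 51 bases before the start in Mmp25, 154 in Epsti1, 21 in Ctss and 47 in Krt18, and none overlaps a match of another motif searched.

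Both strands were searched, for the kappaB consensus, the interferon element and the AP-1 motif TGANTCA. Of the genes called, 178 higher and 33 lower had a promoter in the table. The kappaB consensus was present in 30 (16.9%) of those called higher and 7 (21.2%) of those called lower, beside 9.96% of the 13797 tested genes with a promoter and 8.18% of all 27025 promoters. The interferon element was present in 13 (7.30%) higher and 1 (3.03%) lower, beside 3.29% of tested genes, and the AP-1 motif in 8 (4.49%) higher and 1 (3.03%) lower, beside 6.17% of tested genes. A match gives letters, not a bound site.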

How the data were processed

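RNA-seq counts per gene were used as deposited by the authors, without normalization. Per the submitters' processing notes the tools included HTSeq 0.4.1, Picard 1.134, FastQC 0.11.3 and SAMtools 1.2, with build GRCm38. The aligner, annotation release and strand setting were not given in the sources used here. Per the labels' protocols, libraries came from 200 cells by SMART-Seq v4 and Nextera XT, with no molecular identifiers, so counting precision ignores amplification error, and antisense partners cannot be told apart.

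Genes were named from GENCODE M21 (53360 of 53465 IDs matched). edgeR 4.0.16 in R 4.3.3 was fitted to 21 late libraries in 9 groups (12 residual degrees of freedom), with TMM normalization and filterByExpr (minimum count 10, total 15). This left 20216 of 34183 genes. The early and late boundary was chosen after correlations between libraries were seen, and no label names it. CPM use TMM-scaled library sizes, with totals of 3497172 to 6098199 counts. Alternatives used DESeq2 1.42.0, limma 3.58.1, other scalings, filters, sample sets and covariates, and left out each library. The test was also run on simulated data that gave each gene the same spread in all groups. That simulation cannot show how unequal spread between groups affects the calls.

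Genes named were up to 15 per direction of largest fold past the threshold with no overlap and at least 10 CPM in both libraries of the higher group, 6 per direction of largest fold among those separated at least 2-fold, up to 4 passing members per list (or the 3 of highest CPM), and 12 fixed genes. The text gives a part of these and says where others were chosen after their values were seen. Tap1, Flt3 and Fos also fall outside the rule and were so chosen. The members and lists were chosen with earlier results of these data known. The pan-epithelial, migratory dendritic, conventional dendritic, pan-leukocyte, immunoproteasome and bitter taste receptor lists and the dendritic covariate were added after the values were seen.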

Additional observations from a re-analysis of the deposited data

Results flagged for a closer look

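The signed log2 fold change, Ski flox Control over Control, was higher in MHCII-low mTEC than in another subset for the following genes, by edgeR's test of the difference between contrasts, adjusted over the 20216 genes tested. Against cTEC, the log2 fold change was higher by 3.82 for Anxa3 (SE 0.40, edgeR adjusted p = 0.000311), by 3.35 for Slc4a8 (SE 0.50, edgeR adjusted p = 0.0207), by 11.40 for Mmp25 and by 15.76 for Lrrc47. The values of Mmp25 and Lrrc47 depend on the prior count, since Mmp25 had no count in the MHCII-low Control libraries and Lrrc47 had none in the cTEC Ski flox Control libraries, and they are no bound on the size. Lrrc47, a leucine-rich repeat protein gene, had 14.4 and 9.42 CPM in Ski flox Control and 0.23 and 0 CPM in Control in MHCII-low mTEC, against 0 in both Ski flox Control libraries and 16.2 and 16.5 CPM in Control in cTEC, so its groups stood in opposite order there. Within cTEC its difference did not pass the test (edgeR adjusted p = 0.137).

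Against MHCII-high mTEC, the log2 fold change was higher by 3.98 for Anxa3, 4.48 for Slc4a8, 4.90 for Epsti1, 5.51 for Ankrd35, 4.04 for Rassf2, 3.90 for Arhgap30, 3.63 for Pfkfb3, 3.60 for Grk3, and 11.26 for Mmp25, the last again dependent on the prior count. The other gene, AW112010, differed by 2.11 (SE 0.33, edgeR adjusted p = 0.0229). Grk3, a receptor kinase gene, had 242 and 197 CPM in Ski flox Control and 40.9 and 37.7 CPM in Control in MHCII-low mTEC, against 57.4 and 54.2 CPM in Ski flox Control and 134 and 108 CPM in Control in MHCII-high mTEC, so its groups stood in opposite order in the 2 subsets. Slc4a8 likewise had 107 and 132 CPM in Ski flox Control and 268 and 348 CPM in Control in MHCII-high mTEC. Within MHCII-high mTEC neither Grk3 nor Slc4a8 passed the test (edgeR adjusted p = 0.884 for each). Lrrc47, Rassf2, Arhgap30, Pfkfb3, Grk3 and AW112010 were chosen after their values were seen.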

How the results depend on the processing

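All 234 genes called higher and all 43 called lower by edgeR kept their sign under every alternative, but their number past the threshold did not hold. Beside those counts, calls numbered 529 higher and 494 lower with no count filter, 280 and 65 with a filter of 10 CPM, 555 and 477 by DESeq2, 126 and 193 by limma voom, 0 and 0 with only the 4 or only the 7 MHCII-low mTEC libraries, 2 and 0 with all 40 libraries split into early and late, 18 and 0 with detected genes as a covariate, and 25 and 2 with dendritic markers as a covariate. Leaving out 1 library gave 13 to 266 higher and 1 to 51 lower. Over cTEC (0 higher, 4 lower), calls were 65 and 193 with no filter, 19 and 153 by DESeq2, 8 lower by limma voom, 0 lower with all 40 libraries, the Xist covariate or the detected genes covariate, and 2 lower with the dendritic covariate. Over MHCII-high mTEC (0 and 0), they were 81 and 39 with no filter, 22 and 10 by DESeq2 and 87 and 19 by limma voom. The difference from cTEC (4 and 0) became 324 and 157 with no filter, 8 higher with 10 CPM, 265 and 154 by DESeq2, 1 lower by limma voom, 0 higher with all 40 libraries, 51 and 5 with the Xist covariate, 8 higher with the detected genes covariate and 2 with the dendritic covariate, and 2 to 98 higher and 0 to 4 lower without 1 library. The difference from MHCII-high mTEC (10 and 0) became 310 and 221 with no filter, 33 and 2 with 10 CPM, 241 and 113 by DESeq2, 5 and 8 by limma voom, 0 higher with all 40 libraries, 67 and 3 with the Xist covariate, 3 higher with either other covariate, and 3 to 96 higher and 0 to 1 lower without 1 library. A 4-fold margin left 203 genes higher and 408 lower, beside 613 and 1001 at 2-fold. Among genes named, those with a change of sign did not pass the test under any setting: Fezf2 became 0.14 and 0.13 with the detected genes and dendritic covariates, Krt14 0.07, 0.44 and 0.02 with the Xist, detected genes and dendritic covariates (-0.29 to 0.18 without 1 library), Psmb11 -0.04 with RLE, -0.10 with total counts, -0.05 by DESeq2 and with the Xist covariate, -1.51 and -2.41 with the other covariates (-0.78 to 2.56 without 1 library), Ptprc -0.23 with the dendritic covariate, and Xist 0.34 and 0.53 with the detected genes and dendritic covariates (all log2). List medians moved by more than the spread between replicates in 28 of 43 lists with the dendritic covariate, 21 with the detected genes covariate and 13 to 18 without 1 library. Over all alternatives the median was 1.74 to 3.42 for migratory dendritic genes, 0.94 to 2.38 for myeloid and dendritic markers, 0.08 to 2.63 for conventional dendritic markers, 0.87 to 1.35 for immunoproteasome genes, 0.75 to 1.57 for AIRE and mature genes, -2.97 to -1.94 for pan-epithelial genes, -2.81 to -1.46 for TEC identity, -2.87 to -1.88 for tuft genes, -8.17 to -3.51 for bitter taste receptors and -1.89 to -1.12 for AP-1 genes, with no change of sign in these 10 lists. RLE size factors moved the median of all genes by -0.124 and total counts by -0.188 (log2). Calls between the control genotypes in MHCII-low mTEC then numbered 170 higher and 48 lower with RLE, and 162 and 53 with total counts. The cause of these changes was not tested. No paired analysis was possible because the labels tie no library of one genotype to a library of the other.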
